A study of Homo sapiens with 6 samples.

Results

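The genes of 8 enzymes around the metabolism of asparagine, proline, alanine, aspartate and glutamine were examined in prostate cancer cells with METTL1 silenced. They are ASNS, PYCR1, ALDH18A1, GPT2, PCK2, GOT1, GOT2 and GLUL. They were picked by their place in amino acid synthesis outside the serine and cysteine routes, and the rule uses no measured value, although earlier results of these data were known when they were picked. All 8 were found by symbol among the 20308 genes in the tables, and all 8 were expressed above the minimum used for testing.

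All of these enzymes but PCK2 move nitrogen and carbon between glutamate and the amino acids that a cell can make for itself. PCK2 turns oxaloacetate into phosphoenolpyruvate. Aminotransferases pass an amino group from glutamate to pyruvate or oxaloacetate, giving alanine or aspartate. Aspartate then takes the amide nitrogen of glutamine to give asparagine, and glutamate itself is reduced and closed into proline. In mammalian cells several of these genes are known targets of ATF4, the transcription factor that is made when amino acids run short or when other stresses slow the start of translation.

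LNCaP-AI is an androgen-independent derivative of the LNCaP prostate cancer line, used here to model castration-resistant prostate cancer (CRPC). All cells were kept under androgen deprivation and carried a lentiviral short hairpin. The shMETTL1 group carried a hairpin against METTL1, the catalytic subunit of an RNA methyltransferase that places m7G, and the shscramble group carried a scrambled hairpin. Total RNA was sequenced from 3 libraries of each group to ask how silencing METTL1 acts on CRPC cells. Separate cultures are not named for the replicate libraries in the labels, so p-values measure the spread between these libraries, which may be technical, and the transduced cells are a single cell line.

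METTL1 itself measured 8.35, 10.5 and 8.18 FPKM (fragments per kilobase of transcript, scaled to library depth) in shMETTL1 cells, against 13.9, 18.5 and 21.0 FPKM in shscramble cells. The groups did not overlap, and the shMETTL1 mean was 50.7% of the shscramble mean. With limma the difference was -0.93 on the log2 scale and missed the threshold (adjusted p = 0.127), whereas METTL1 fell by 1.36 on the log2 scale in edgeR (adjusted p = 0.0368). That call was lost without shMETTL1 replicate 1 (adjusted p = 0.142), without shMETTL1 replicate 3 (adjusted p = 0.109) and without shscramble replicate 3 (adjusted p = 0.187). The METTL1 estimated counts were low, at 9.519, 28.55 and 20.53 in shMETTL1 cells against 36.45, 48.63 and 65.15 in shscramble cells. METTL1 overlaps CYP27B1, at or below 2.97 FPKM in every library, and EEF1AKMT3 on the opposite strand. EEF1AKMT3 measured 10.1, 7.28 and 5.0 FPKM in shMETTL1 cells, against 5.91, 4.34 and 1.94 FPKM in shscramble cells. The part of these overlaps in the METTL1 values was not tested. The totals of estimated counts lay between 3389897 and 3604835, so close together that they may have been scaled before deposit, and the read depth behind each value is therefore unknown. All 10 prostate luminal markers were detected. The summed levels of the luminal list ran from 2150 to 2410 FPKM in shMETTL1 cells and from 2620 to 2690 FPKM in shscramble cells. Of the leukocyte markers, 4 of 7 were at 0 in every library, PTPRC and CD3E included, and the list summed to between 6.43 and 8.11 FPKM in shMETTL1 cells against 11.8 to 16.8 FPKM in shscramble cells, nearly all of it CD68. DCN and LUM of the fibroblast list, CDH5 and KDR of the endothelial list, and KRT5, CHGA and INSM1 of the basal and neuroendocrine list were also at 0 throughout. The fibroblast list summed to 10.4 to 16.3 FPKM in shMETTL1 cells and 9.64 to 16.0 FPKM in shscramble cells. In it ACTA2 averaged 4.89 FPKM in shMETTL1 cells and 1.70 FPKM in shscramble cells, without overlap (log2 fold change 1.33, limma adjusted p = 0.125, edgeR adjusted p = 0.127), and COL1A1 averaged 8.14 FPKM in shMETTL1 cells and 10.1 FPKM in shscramble cells. The highest sums were 0.166 FPKM in shMETTL1 cells and 0.219 FPKM in shscramble cells for the endothelial list, and 2.70 FPKM in shMETTL1 cells and 5.01 FPKM in shscramble cells for the basal and neuroendocrine list. The part of these differences in the results was not tested.

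All 8 enzymes had a higher mean FPKM in shMETTL1 cells than in shscramble cells, by between 1.13-fold for GOT1 and 1.72-fold for ASNS. By estimated counts, 3 of them rose: ASNS, GPT2 and PCK2 passed edgeR's quasi-likelihood test at an adjusted p under 0.05, where 2.68% of all 11248 genes tested were called higher. By FPKM none of the 8 passed limma, in which 0.123% of 12156 genes were called in either direction. At an unadjusted p under 0.05 limma held 4 of the 8, beside 7.37% of all genes in that direction. DESeq2 on the counts called the same 3 genes as edgeR, beside 2.67% of all genes. At the thresholds of the study (a fold change above 1.5 with p under 0.05, unadjusted), ASNS and PCK2 passed, beside 4.59% of all genes in the same direction. The 3 shMETTL1 libraries lay above all 3 shscramble libraries in FPKM for 6 of the 8 genes, every one but GOT1 and GOT2, and the same held for 10.5% of all genes tested. The median log2 fold change of the 8 was 0.40 by FPKM and 0.32 by estimated counts, beside 0.02 by FPKM over all genes tested. In bulk RNA, fewer cells of one kind and less RNA per cell cannot be told apart.

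**Figure D1:**
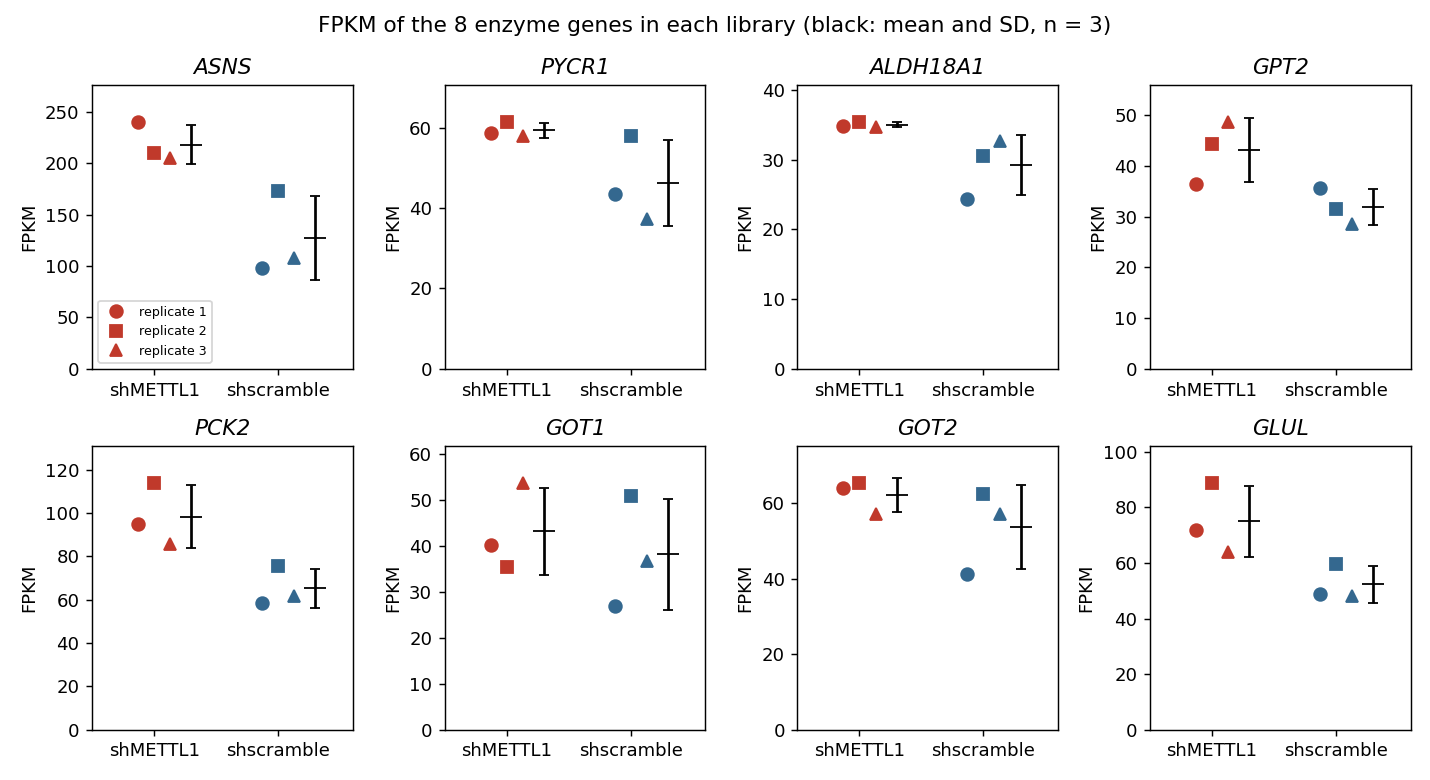
FPKM of each of the 8 enzyme genes in every library, with shMETTL1 on the left and shscramble on the right of each panel, marker shapes for replicates, and the mean and SD (n = 3) in black; each axis starts at 0. The shMETTL1 points lie above all shscramble points in 6 panels, and the GOT1 and GOT2 points overlap.

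ASNS (ENSG00000070669), asparagine synthetase, transfers the amide nitrogen of glutamine to aspartate and is the only enzyme with which human cells make asparagine. It had the highest level and the largest difference of the 8. ASNS measured 240, 210 and 205 FPKM in the shMETTL1 libraries, against 98.5, 173 and 108 FPKM in the shscramble libraries. Every shMETTL1 library was above every shscramble library, and shscramble replicate 2 stood well above the other two controls. The means were 218 ± 19 FPKM and 127 ± 40.8 FPKM (SD, n = 3 each). The log2 fold change was 0.83 (SE 0.21, 95% interval 0.36 to 1.29) with limma, at an adjusted p of 0.146. The estimated counts gave a tighter contrast, at 1233, 1085 and 1036 in shMETTL1 cells against 529.9, 777.2 and 619.9 in shscramble cells. ASNS rose by 0.76 on the log2 scale in edgeR (SE 0.12, adjusted p = 0.0017), and this call was kept with each library left out in turn. Without shscramble replicate 2, ASNS also passed limma on FPKM, with a log2 fold change of 1.07 (adjusted p = 0.0246). With any other library left out it did not pass limma (log2 fold change 0.67 to 0.87, adjusted p 0.286 to 0.381). Set against shscramble replicates 1 and 3 alone, the ASNS mean was 2.11-fold higher in shMETTL1 cells. Leaving out the highest control can only raise this ratio, so it adds no support. The gene lies on the minus strand of chromosome 7, from 97852118 to 97872542 in GRCh38, and 4 pseudogenes named after it are annotated, none of which is among the genes in the tables.

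The ASNS promoter carries a well-studied amino acid response element to which ATF4 binds together with C/EBP proteins. The motif searched was TGATGNAA, a short form of the C/EBP-ATF response element (CARE), on both strands of the windows that RefSeq places from 250 bases before to 50 bases after each start site (GRCh38.p14). No other motif was searched. It occurred in 3.62% of all 35116 windows and in 1.95% of the 14246 windows of tested genes. Of the 8 enzymes, 6 were matched in the RefSeq table, with 8 windows, and 2 of those windows held the motif. PYCR1 and GPT2 had no window there and were not searched. The windows of ASNS and GOT1 are shown because they held it, in capitals, and the window of PCK2 because that gene rose with ASNS in edgeR and its window has no such letters. All are written 5′ to 3′ along the strand of the gene. The ASNS window is chr7:97872359-97872658 on the minus strand, the GOT1 window chr10:99430575-99430874 on the minus strand and the PCK2 window chr14:24094061-24094360 on the plus strand.
ASNS: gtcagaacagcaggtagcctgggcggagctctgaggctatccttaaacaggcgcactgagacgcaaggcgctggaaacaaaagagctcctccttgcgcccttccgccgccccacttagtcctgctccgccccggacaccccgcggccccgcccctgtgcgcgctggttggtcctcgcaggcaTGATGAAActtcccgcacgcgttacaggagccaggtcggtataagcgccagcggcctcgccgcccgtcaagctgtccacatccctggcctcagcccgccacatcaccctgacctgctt
GOT1: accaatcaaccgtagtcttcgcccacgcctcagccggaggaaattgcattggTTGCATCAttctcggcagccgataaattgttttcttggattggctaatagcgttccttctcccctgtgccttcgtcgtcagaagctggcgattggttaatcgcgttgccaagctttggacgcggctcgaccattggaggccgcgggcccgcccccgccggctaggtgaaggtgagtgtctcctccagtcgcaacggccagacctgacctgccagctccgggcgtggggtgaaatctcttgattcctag
PCK2: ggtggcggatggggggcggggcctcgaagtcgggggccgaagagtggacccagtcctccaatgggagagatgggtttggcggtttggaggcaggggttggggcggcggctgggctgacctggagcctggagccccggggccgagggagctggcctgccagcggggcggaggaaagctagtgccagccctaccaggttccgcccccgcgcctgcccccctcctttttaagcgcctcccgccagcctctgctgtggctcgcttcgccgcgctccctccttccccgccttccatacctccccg
The ASNS match reads TGATGAAA along the strand of the gene and begins 68 bases before the start site. The GOT1 match lies on the opposite strand, so that the motif appears as its complement TTGCATCA, beginning 198 bases before the start site. The match thus occurred in the gene with the largest difference in FPKM of the 8 and in the gene with the smallest. A match describes letters in a window and was not tested as a binding site.

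PYCR1 and ALDH18A1 stand at either end of proline synthesis. ALDH18A1 (ENSG00000059573) makes glutamate semialdehyde from glutamate in mitochondria, and PYCR1 (ENSG00000183010) carries out the last step, the reduction of pyrroline carboxylate to proline. PYCR1 measured 58.6, 61.4 and 58.0 FPKM in shMETTL1 cells, against 43.4, 57.9 and 37.3 FPKM in shscramble cells. The ranges almost touched, since shscramble replicate 2 reached nearly the level of the lowest shMETTL1 library. The log2 fold change was 0.38 (SE 0.18, 95% interval -0.02 to 0.78, limma adjusted p = 0.371) by FPKM and 0.40 by estimated counts (edgeR adjusted p = 0.0767). Leaving out shscramble replicate 2 brought PYCR1 past the threshold in edgeR (log2 fold change 0.49, adjusted p = 0.0143), while the other 5 fits that left out a library did not pass (adjusted p up to 0.288). By FPKM the difference was 0.24 without shscramble replicate 3. ALDH18A1 measured 34.8, 35.4 and 34.7 FPKM in shMETTL1 cells, against 24.3, 30.5 and 32.7 FPKM in shscramble cells. The shMETTL1 libraries were nearly equal, and the shscramble libraries all lay below them. The difference of 0.27 (SE 0.16, 95% interval -0.10 to 0.63) did not pass limma (adjusted p = 0.485), nor did that of 0.23 pass edgeR (adjusted p = 0.235). PYCR1 lies on the minus strand of chromosome 17 from 81932384 to 81942412, and ALDH18A1 on the minus strand of chromosome 10 from 95605929 to 95656706 (GRCh38). PYCR1 overlaps MYADML2, which was at or below 0.103 FPKM in every library.

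GPT2 (ENSG00000166123) is the mitochondrial alanine aminotransferase, which makes alanine and alpha-ketoglutarate from pyruvate and glutamate. It measured 36.4, 44.4 and 48.7 FPKM in shMETTL1 cells, against 35.6, 31.6 and 28.5 FPKM in shscramble cells. The groups touched at shMETTL1 replicate 1 and shscramble replicate 1, which are apart by less than 1 FPKM. The log2 fold change by FPKM was 0.43 (SE 0.17, 95% interval 0.04 to 0.81, limma adjusted p = 0.316). The estimated counts of GPT2 were 500.5, 564.6 and 572.9 in shMETTL1 cells, against 316.8, 373.4 and 318.3 in shscramble cells. On that scale the groups were well apart, and GPT2 rose by 0.65 (SE 0.11, edgeR adjusted p = 0.00298), a call kept with each library left out in turn. In shscramble replicate 2, GPT2 was the highest of the controls by estimated counts but not by FPKM. The gene lies on the plus strand of chromosome 16 from 46884378 to 46931297 (GRCh38) and overlaps no annotated gene.

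PCK2 (ENSG00000100889), the mitochondrial phosphoenolpyruvate carboxykinase, turns oxaloacetate into phosphoenolpyruvate. PCK2 measured 95.1, 114 and 85.9 FPKM in shMETTL1 cells, against 58.6, 75.4 and 61.7 FPKM in shscramble cells. The lowest shMETTL1 library was above the highest shscramble library. The means were 98.4 ± 14.5 FPKM and 65.3 ± 8.93 FPKM (SD, n = 3 each), and the log2 fold change was 0.59 (SE 0.16, 95% interval 0.22 to 0.95, limma adjusted p = 0.177). By estimated counts PCK2 measured 867.6, 1003 and 782.1 in shMETTL1 cells, against 529.9, 636.6 and 560.3 in shscramble cells. PCK2 rose by 0.57 on the log2 scale in edgeR (SE 0.11, adjusted p = 0.00728). The call was lost without shMETTL1 replicate 2 (adjusted p = 0.0693) and without shscramble replicate 3 (adjusted p = 0.0599). PCK2 lies on the plus strand of chromosome 14 from 24094053 to 24110598 (GRCh38), inside the span of NRL on the opposite strand. NRL was at or below 0.551 FPKM in shMETTL1 cells and at or below 0.616 FPKM in shscramble cells.

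GOT1 and GOT2 are the cytosolic and mitochondrial aspartate aminotransferases, which convert oxaloacetate and glutamate to aspartate and alpha-ketoglutarate and form part of the malate-aspartate shuttle. Neither differed between the groups beyond the spread of the libraries. GOT1 (ENSG00000120053) measured 40.3, 35.4 and 53.8 FPKM in shMETTL1 cells, against 26.9, 51.0 and 36.8 FPKM in shscramble cells. The groups overlapped widely, and the log2 fold change of 0.20 had a 95% interval of -0.36 to 0.76 (limma adjusted p = 0.746). Without shscramble replicate 1 it was -0.03. GOT2 (ENSG00000125166) measured 64.1, 65.4 and 57.0 FPKM in shMETTL1 cells, against 41.1, 62.5 and 57.1 FPKM in shscramble cells. Only shscramble replicate 1 lay outside the range of the shMETTL1 libraries, and the log2 fold change was 0.23 (95% interval -0.17 to 0.64, limma adjusted p = 0.585). In edgeR the differences were 0.18 for GOT1 (adjusted p = 0.494) and 0.17 for GOT2 (adjusted p = 0.45). GOT1 lies on the minus strand of chromosome 10 from 99396870 to 99431569, and GOT2 on the minus strand of chromosome 16 from 58707131 to 58734357 (GRCh38). Of GOT2, 4 named pseudogenes are annotated, and none is among the genes in the tables.

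GLUL (ENSG00000135821), glutamine synthetase, joins ammonia to glutamate. GLUL measured 72.0, 88.9 and 64.0 FPKM in shMETTL1 cells, against 49.0, 59.8 and 48.1 FPKM in shscramble cells. The FPKM ranges did not overlap, and the means were 75.0 ± 12.7 FPKM and 52.3 ± 6.53 FPKM (SD, n = 3 each). The log2 fold change by FPKM was 0.51 (SE 0.17, 95% interval 0.13 to 0.89, limma adjusted p = 0.243). Its estimated counts were 609.2, 664.0 and 533.8 in shMETTL1 cells, against 471.9, 553.2 and 600.3 in shscramble cells. On that scale the groups overlapped, and the difference was 0.10 (SE 0.12, edgeR adjusted p = 0.654). The gene lies on the minus strand of chromosome 1 from 182381704 to 182392206 (GRCh38), and its 4 named pseudogenes are not among the genes in the tables.

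The estimated count per unit of FPKM shows where the scales part. FPKM divides a count by an estimated transcript length, so the quotient moves with the isoforms to which reads were assigned. For GOT2 it averaged 9.62 in shMETTL1 cells and 9.62 in shscramble cells, with a range of 2.47% over the 6 libraries. For GLUL it was 8.46, 7.47 and 8.34 in shMETTL1 cells, against 9.62, 9.25 and 12.5 in shscramble cells. All 3 shMETTL1 libraries were thus below all 3 controls, and the mean differed by -22.6%. For GPT2 the quotient was 13.7, 12.7 and 11.8 in shMETTL1 cells, against 8.90, 11.8 and 11.2 in shscramble cells, and its mean differed by 19.8%. The shscramble replicate 1 library had the lowest value. For the other 5 genes the means of the groups differed by at most 5.30%. The part that isoform assignment had in the GLUL and GPT2 differences was not tested.

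**Figure D2:**
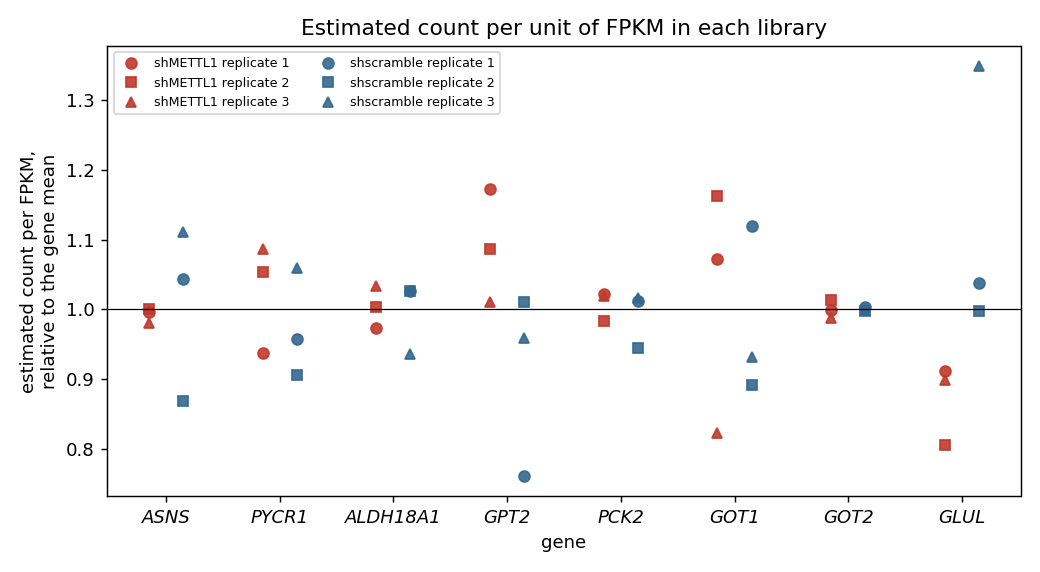
Estimated count per unit of FPKM in each library, divided by the mean of the 6 libraries for that gene; red markers are shMETTL1 and blue markers shscramble, with shapes for replicates. GOT2 stays at 1, the GLUL controls lie above the shMETTL1 libraries, and the GPT2 control with the lowest value is shscramble replicate 1.

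**Figure D3:**
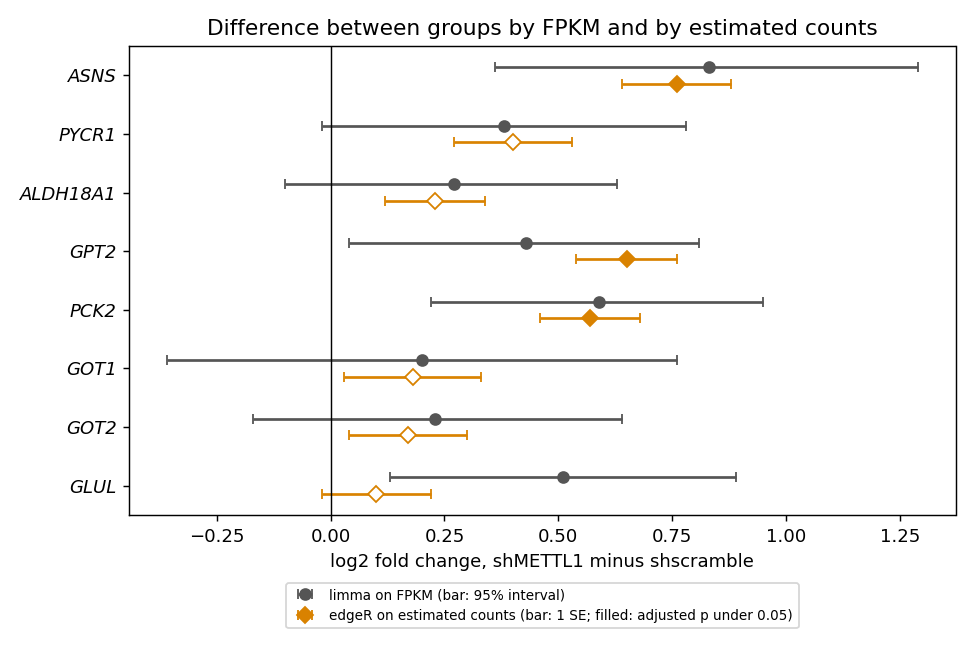
Log2 fold change, shMETTL1 minus shscramble, of each gene by limma on FPKM (circles, bars for the 95% interval) and by edgeR on estimated counts (diamonds, bars for 1 SE, filled at an adjusted p under 0.05). All points lie right of 0; ASNS, GPT2 and PCK2 are filled, and the scales differ most for GLUL, at 0.51 by FPKM and 0.10 by counts.

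The control libraries were unlike each other in these genes. By FPKM shscramble replicate 2 was the highest control in 6 of the 8, all but ALDH18A1 and GPT2, and by estimated counts in 7, all but GLUL. In FPKM, measured from the mean of shscramble replicates 1 and 3, its level covered 60.9% of the way to the shMETTL1 mean for ASNS, 92.4% for PYCR1, 39.8% for PCK2, 42.7% for GLUL and 102% for GOT2. For GOT1 it went past the shMETTL1 mean, at 169%. The summed FPKM of the 8 genes was 641, 656 and 607 in shMETTL1 cells, against 377, 542 and 410 in shscramble cells, so the groups did not overlap in the sum either. The mean of the 8 centred log2 levels was 0.19, 0.26 and 0.20 in shMETTL1 cells, against -0.40, 0.04 and -0.28 in shscramble cells. Without shscramble replicate 2, limma called 189 genes in all, against 15 with every library, and 1 of the 8 enzymes, ASNS. Nothing in the labels sets this library apart, and what it differs in was not tested.

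**Figure D4:**
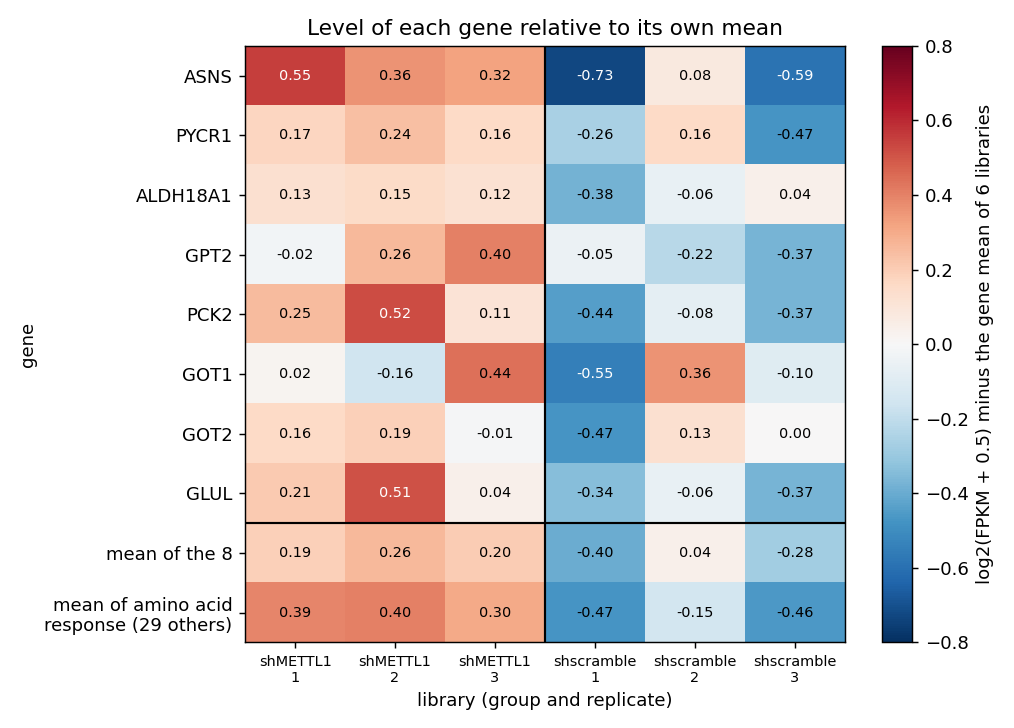
Log2(FPKM + 0.5) of each gene minus its own mean over the 6 libraries, with shMETTL1 columns left of shscramble columns; the lower rows give the mean of the 8 enzymes and of 29 other genes of the amino acid response. Among the controls, replicate 2 is the palest, at 0.04 for the mean of the 8 against -0.40 and -0.28.

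Levels per transcript length put ASNS at the top of the 8 in both groups. In shMETTL1 cells the mean FPKM ran from ASNS (218) through PCK2 (98.4), GLUL (75.0), GOT2 (62.2), PYCR1 (59.3), GPT2 (43.2) and GOT1 (43.2) to ALDH18A1 (35.0). Only ASNS and PCK2, and PYCR1 and GPT2, were neighbours whose libraries did not overlap. In shscramble cells the order was ASNS (127), PCK2 (65.3), GOT2 (53.6), GLUL (52.3), PYCR1 (46.2), GOT1 (38.2), GPT2 (31.9) and ALDH18A1 (29.2), and among neighbours only ASNS and PCK2 were apart. ASNS stood at the 98.0th percentile of the tested genes in shMETTL1 cells and at the 95.7th in shscramble cells. It made up 37.4%, 32.1% and 33.7% of the summed FPKM of the 8 in shMETTL1 cells, against 26.1%, 32.0% and 26.4% in shscramble cells. Even the lowest of the 8, ALDH18A1, was above 78.8% of the tested genes in shMETTL1 cells and above 74.6% in shscramble cells.

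Enzymes were also set against a close relative within a library, where the scaling of the library cancels. GPT2 held 97.2% ± 1.82 of the FPKM of GPT and GPT2 in shMETTL1 cells and 92.4% ± 4.75 in shscramble cells (exact two-sided permutation p = 0.2, adjusted p = 0.5 over 5 shares, of which 3 are reported here, SD over 3 libraries each). The smallest p that 3 against 3 libraries allow is 0.1. GOT1 held 40.8% ± 6.99 of GOT1 and GOT2 in shMETTL1 cells and 41.2% ± 3.22 in shscramble cells (exact permutation p = 0.8, adjusted p = 1). PCK2 held 100% in every library, because PCK1, the cytosolic carboxykinase, was listed at 0 in all 6.

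The enzymes that use the same amino acids in other reactions did not share a direction. In 6 lists with 59 genes in all, 45 were tested by FPKM, and 23 of those had a positive log2 fold change, with a median of 0.00. No gene of these lists passed limma, and 8 had an unadjusted p under 0.05 in either direction, beside 14.2% of all genes tested. At the thresholds of the study, 5 were higher in shMETTL1 cells, beside 4.59% of all genes, and 2 were lower, beside 4.38%. Of the 40 tested in edgeR, 0 rose, with 5 higher at an unadjusted p under 0.05 (10.7% of all genes), and 1 fell, ASRGL1 (3.65% of all genes).

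ASRGL1, an asparaginase that breaks asparagine down to aspartate, measured 1.63, 4.70 and 3.84 FPKM in shMETTL1 cells, against 12.9, 3.37 and 14.1 FPKM in shscramble cells. It fell by 1.47 on the log2 scale in edgeR (adjusted p = 0.0354), where the estimated counts of the groups did not overlap, at 8.84, 14.95 and 17.69 in shMETTL1 cells against 45.79, 26.37 and 40.19 in shscramble cells. The call was lost in 5 of 6 fits that left out a library, all but that without shscramble replicate 2 (highest adjusted p 0.146). By FPKM shscramble replicate 2 lay within the shMETTL1 range, and the difference of -1.33 did not pass limma (adjusted p = 0.32). The other asparagine and aspartate genes named by smallest p were ASL, argininosuccinate lyase (-0.52, limma adjusted p = 0.357), NAT8L, which makes N-acetylaspartate (0.35, adjusted p = 0.544), and DDO, D-aspartate oxidase (-0.16, adjusted p = 0.906). In the proline and ornithine list the log2 fold changes by FPKM were 0.75 for PYCR3 (limma adjusted p = 0.339), -0.74 for OAT, ornithine aminotransferase (adjusted p = 0.274), and -0.34 for ALDH4A1 of proline breakdown (adjusted p = 0.675). PYCR3 and OAT had a fold change above 1.5 with an unadjusted p under 0.05 by limma, PYCR3 upward and OAT, which links ornithine to the proline precursor, downward. In edgeR neither passed, with adjusted p values of 0.186 for PYCR3 and 0.156 for OAT.

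Among the other aminotransferases, BCAT2 of branched-chain amino acids had a log2 fold change of 0.36 and AADAT one of 0.35, with limma adjusted p values of 0.378 and 0.395. GPT, the cytosolic alanine aminotransferase, was low in all libraries and differed by -0.82 (adjusted p = 0.508), and KYAT1 by -0.69 (adjusted p = 0.533). In glutamine use, CAD, which starts pyrimidine synthesis with the amide of glutamine, measured 34.1, 25.1 and 30.2 FPKM in shMETTL1 cells, against 15.8, 22.1 and 14.9 FPKM in shscramble cells. These ranges did not overlap, but the log2 fold change of 0.75 missed the limma threshold (adjusted p = 0.177) and was 0.29 in edgeR (adjusted p = 0.254). GAD1, glutamate decarboxylase, differed by 0.81 (limma adjusted p = 0.299) and PPAT of purine synthesis by 0.29 (adjusted p = 0.427). The mitochondrial carriers split by sign. SLC25A11, the oxoglutarate carrier, had a log2 fold change of 0.63 (limma adjusted p = 0.346) and the glutamate carrier SLC25A22 one of 0.53 (adjusted p = 0.416), while the aspartate-glutamate carriers SLC25A12 and SLC25A13 had -0.48 (adjusted p = 0.439) and -0.31 (adjusted p = 0.472). Around phosphoenolpyruvate and pyruvate, malic enzyme ME1 differed by 0.48 (limma adjusted p = 0.301), MPC1 of the pyruvate carrier by 0.56 (adjusted p = 0.416), G6PC3 by 0.42 (adjusted p = 0.513) and PKM, pyruvate kinase, by -0.11 (adjusted p = 0.733).

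Most other genes of the amino acid response rose by estimated counts. They were listed with earlier results of these data known, so how many rose adds no independent support. Of 29 tested genes of a list that leaves out the 8, 27 had a positive log2 fold change by FPKM, beside 52.5% of all genes tested. At the thresholds of the study 18 were higher, beside 4.59% of all genes, and 21 rose in edgeR, beside 2.68%. None fell in edgeR. Their median log2 fold change was 0.67, above the 0.40 of the 8 enzymes, and 1 gene passed limma. That gene was CTH, cystathionine gamma-lyase, at 28.2 ± 2.65 FPKM in shMETTL1 cells and 11.4 ± 1.73 FPKM in shscramble cells (SD, n = 3 each; log2 fold change 1.28, limma adjusted p = 0.0494). This limma call was lost in 5 of 6 fits that left out a library, all but that without shscramble replicate 2, while CTH passed edgeR in all 6. By FPKM PSAT1 of serine synthesis had a log2 fold change of 1.06 (limma adjusted p = 0.0542). The neutral amino acid transporter SLC1A4 had one of 1.52 (limma adjusted p = 0.0643). TRIB3, a pseudokinase induced by ATF4, had one of 1.18 (limma adjusted p = 0.0643). In edgeR all 3 rose, by 1.00, 1.39 and 1.14 (adjusted p = 0.000161, 0.000737 and 0.000389). The ATF4 mRNA itself measured 670, 675 and 637 FPKM in shMETTL1 cells, against 488, 423 and 475 FPKM in shscramble cells. The groups did not overlap. ATF4, named here after its values were seen, had a log2 fold change of 0.52 and did not pass limma (adjusted p = 0.114). It passed limma in 0 of 6 fits that left out a library. In edgeR ATF4 rose by 0.45 on the log2 scale (adjusted p = 0.0272). That edgeR call was lost without any 1 of the shMETTL1 libraries or without shscramble replicate 3 (highest adjusted p 0.11). In the ATF4 mRNA shscramble replicate 2 was the lowest control, unlike in ASNS. The mean centred level of the 29 genes was 0.39, 0.40 and 0.30 in shMETTL1 cells, against -0.47, -0.15 and -0.46 in shscramble cells.

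**Figure D5:**
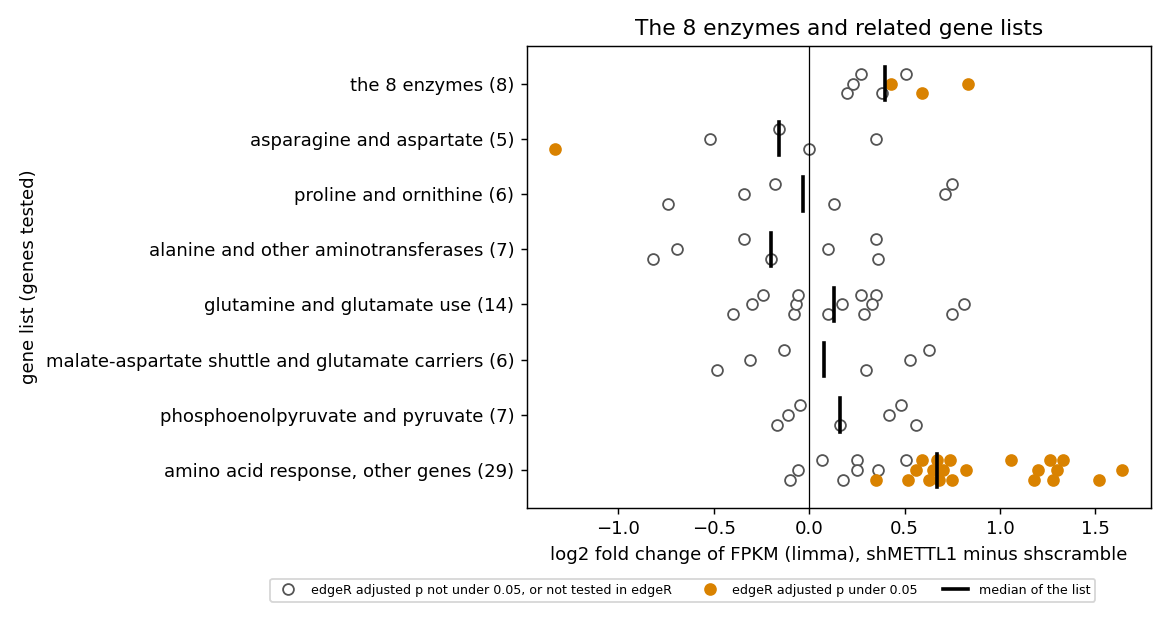
Log2 fold change of FPKM (limma), shMETTL1 minus shscramble, for each tested gene of the 8 enzymes and of 7 related lists, filled where edgeR on estimated counts gave an adjusted p under 0.05 and open otherwise or where edgeR did not test the gene, with a bar at the median of each list and the number of genes tested in brackets. The 8 enzymes have a median of 0.40 and the amino acid response one of 0.67, whereas the medians of the other 6 lists lie between -0.20 and 0.16.

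For the 3 enzymes with the largest log2 fold change by FPKM, the tested genes with the most similar profile over the 6 libraries were sought. Likeness was the root mean square difference of centred log2(FPKM + 0.5) values. For ASNS these were CLN3 (0.057), FICD (0.067) and ABHD4 (0.075). For PCK2 they were CHPF2 (0.047), GLUL (0.053) and NXT1 (0.079), and for GLUL they were PCK2 (0.053), CHPF2 (0.054) and SYS1 (0.075). By FPKM PCK2 and GLUL were thus among the closest of all tested genes to each other, each with replicate 2 as its highest library in both groups. By estimated counts the highest GLUL control was replicate 3 (600.3), and the edgeR log2 fold change was 0.10 for GLUL and 0.57 for PCK2. Likeness by estimated counts was not tested. ASNS had no enzyme of the 8 as close as these, with PCK2 the nearest at 0.232. This did not set ASNS apart, since the nearest enzyme was at 0.262 for GOT1 (GOT2) and 0.219 for GPT2 (PYCR1).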

How the data were processed

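Total RNA of 3 shMETTL1 and 3 shscramble LNCaP-AI libraries was sequenced, and for each library the authors deposited a table of FPKM values (per transcript length and library) and estimated counts per gene. HISAT2 2.0.4, cutadapt 1.9.3, Cuffdiff, Cufflinks and build hg19 are listed, without roles, in the submitters' processing notes. Strand-specific counting is not given in the sources used here. Whether the estimated counts deposited by the authors were scaled is not stated, so no counting interval was computed.

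Of 20308 genes, 19434 (95.7%) were paired with a symbol. Log2(FPKM + 0.5) was compared with limma 3.58.1 in R 4.3.3 (trend and robust prior), in the 12156 genes whose mean FPKM reached 0.5. These fold changes understate the change of low genes. Estimated counts were rounded and tested with edgeR 4.0.16 (quasi-likelihood, TMM, filterByExpr), 11248 genes, with standard errors taken from the F statistic. DESeq2 1.42.0 and limma on log2 CPM (prior count 2) served as alternatives, with other pseudocounts, filters and scalings, a replicate block, and each library left out. Two-sided p-values were adjusted over all genes tested (Benjamini-Hochberg), with a threshold of 0.05. Levels and family shares were compared by exact permutation over 20 splits, with a smallest p of 0.1. The limma, edgeR, DESeq2 and log2 CPM fits were tested on simulated data.

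The 8 enzymes and all lists were chosen with earlier results of these data known. Named were the 8, METTL1, genes of the family shares, up to 4 tested genes of smallest p per list and, for the 3 largest changes, the 3 genes of most similar profile. Gene coordinates are from GENCODE 29 (GRCh38) and promoter windows from RefSeq (GRCh38.p14). Neither is the hg19 build of the tables, which hold no coordinates. Some genes and family shares that these rules name are not reported here.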

Additional observations from a re-analysis of the deposited data

How the results depend on the processing

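By FPKM 0 of the 8 enzymes passed limma, and 3 did in edgeR as run, with a replicate block, with median-ratio size factors and with no low-count filter, in DESeq2, and in limma on log2 CPM. With a library left out the number was 0 to 1 in limma and 2 to 4 in edgeR. The 2 enzymes past the thresholds of the study became 1 at a pseudocount of 1 and with median-ratio scaling, where PCK2 was lost, and 1 to 3 with a library left out. The 7 genes of the 6 related lists past those thresholds became 4 with no filter on low values and in limma on log2 CPM, and 3 in DESeq2 and in edgeR as run, with the block, with median-ratio size factors and with no low-count filter, and 1 to 10 with a library left out. The log2 fold change of GOT1 ran from -0.03 (without shscramble replicate 1, adjusted p = 0.977) to 0.43 with a library left out. METTL1 passed the threshold at -1.36 in edgeR with and without the low-count filter, -1.40 with the block, -1.37 with median-ratio size factors and in DESeq2, and -1.39 in limma on log2 CPM. With a library left out it was -1.09 to -0.80 in limma and -1.72 to -1.05 in edgeR, where it passed at -1.72, -1.52 and -1.42. The cause of these differences was not tested.

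Genes called over the whole table numbered 15 in limma and 712 in edgeR, and with a library left out 3 to 189 and 270 to 1989. The labels share replicate numbers, but the deviations of same-numbered libraries correlated at 0.002, 0.053 and -0.024, so the numbers were not taken as pairs. The replicate block called 6 genes in limma and 970 in edgeR, and 0 and 3 of the 8 enzymes. Over 25 alternatives the adjusted p ran from 4.73e-07 to 0.381 for ASNS, 7.06e-05 to 0.58 for GPT2, 0.000195 to 0.453 for PCK2 and 0.0976 to 0.928 for GLUL. Other scalings moved the median log2 fold change of all genes by at most -0.03.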
